A study of Homo sapiens and Mus musculus with 24 samples.

Results

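The YPEL family of human genes has 5 members, YPEL1, YPEL2, YPEL3, YPEL4 and YPEL5, and its RNA was followed here in MCF10A, a non-tumorigenic line of human breast epithelium. The genes were found by symbol among 58434 gene identifiers, 21079 of which had enough reads to be tested, and the 5 genes have 40 annotated transcripts. They were chosen by the very comparisons described below, because YPEL3 had been seen to be lower with the mutation and higher with the drug, so their own values are a description without a test. The 12 libraries form 4 groups of 3. KI cells carry 1 copy of the activating H1047R change in PIK3CA, the catalytic subunit of PI3K alpha, at its own locus, and parental cells are their isogenic wild-type line. Cells of each line were given alpelisib (BYL719), an inhibitor of PI3K alpha, at 1 uM, or its solvent DMSO, for 4 h. Both lines came from a supplier, and the sources do not state whether the KI line is 1 clone or whether the 3 libraries of a group are separate cultures. Line and genotype therefore cannot be told apart. The series also holds 12 libraries of mouse embryonic fibroblasts, which were not analysed here.

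YPEL proteins, named after the fly protein Yippee, are small zinc-binding proteins conserved from yeasts and plants to mammals. YPEL5 is a subunit of the CTLH complex, the mammalian counterpart of the yeast GID ubiquitin ligase. YPEL3 was described in human cells as a p53-induced gene that holds back growth and promotes senescence. PI3K makes a membrane lipid that activates the kinase AKT, and AKT keeps FOXO transcription factors out of the nucleus, so inhibitors of PI3K can raise FOXO target genes.

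The libraries held 120177015 to 162755457 estimated read pairs. All 5 YPEL genes passed the filter on low counts, the lowest value being 34 pairs for YPEL4. KI DMSO replicate 2 stood apart from its group on the second principal component, which took 19.9% of the variance. PIK3CA averaged 70.5 ± 1.55 CPM (estimated pairs scaled to a fixed library total) in KI cells with BYL719, 40.2 ± 5.9 in KI cells with DMSO, 69.0 ± 2.81 in parental cells with BYL719 and 57.8 ± 1.69 in parental cells with DMSO (SD, n = 3 each). A gene total does not separate the alleles, so it does not check the knock-in. All 10 epithelial markers examined, keratins and EPCAM among them, reached 1 CPM in every group, but their levels differed between groups. TP63, a basal epithelial factor, had group means of 59.2 CPM in KI BYL719, 27.7 in KI DMSO, 106 in parental BYL719 and 78.8 in parental DMSO cells, and the cadherin gene CDH1 had 141, 110, 263 and 241 in that order, so both were lowest in KI DMSO like the YPEL genes. ITGA6, ITGB4 and EGFR were also lowest in KI DMSO by group mean. EPCAM, KRT5 and KRT17 were lowest in KI BYL719 instead, and KRT18 had 412 to 425 CPM in the 4 groups. KRT14 went the other way between the lines, at 211, 263, 50.4 and 52.0 CPM. The part of these markers in the YPEL values was not tested. Of the markers of other cells, 0 of 3 endothelial and 0 of 2 adipocyte genes reached 1 CPM in any group, and 1 of 4 haematopoietic genes did, CD68, with group means of 20.3 CPM in KI BYL719, 16.1 in KI DMSO, 16.1 in parental BYL719 and 16 in parental DMSO cells. Of 4 neural markers, MAP2 and SYT1 reached 1 CPM. The summed neural markers were at 19.0 to 20.5 CPM in KI BYL719, 8.12 to 11.7 in KI DMSO, 15.1 to 15.7 in parental BYL719 and 10.3 to 11.3 in parental DMSO libraries, the order of YPEL1, YPEL2 and YPEL5 except that the DMSO groups overlapped. As group means, SNAP25 had 0.0101 CPM or less, RBFOX3 0.198 to 0.297, SYT1 2.26 to 3.72 and MAP2 7.65 to 15.6. The part of the neural markers in the YPEL values was not tested. In bulk RNA, fewer cells with a transcript and less of it per cell cannot be told apart.

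YPEL3 (ENSG00000090238.11, GRCh38 chromosome 16, 30092314 to 30096915, minus strand) was the member furthest below parental cells in KI cells with DMSO, and in KI cells with BYL719 it was within the range of the parental libraries or just above it. It had 25.8, 38.5 and 31.8 CPM in KI BYL719 libraries, 6.5, 7.69 and 6.27 in KI DMSO, 36.8, 35.5 and 37.9 in parental BYL719, and 25.7, 25.2 and 26.0 in parental DMSO. The 3 KI DMSO libraries lay far below the other 9. The order of the levels was parental BYL719, KI BYL719, parental DMSO and KI DMSO, and the KI BYL719 libraries overlapped both of their neighbours in that order. On the log2 scale of the edgeR fit, YPEL3 differed by -1.88 (SE 0.125) for KI against parental cells in DMSO, 3.69-fold lower in KI cells. The BYL719 difference was 2.22 (SE 0.126) in KI cells, a 4.67-fold higher level, and 0.51 (SE 0.118) in parental cells, 1.43-fold. These SE rest on a spread shared by the 4 groups. The CPM SD itself was 6.38 in KI BYL719, 0.759 in KI DMSO, 1.2 in parental BYL719 and 0.416 in parental DMSO cells. Under BYL719 the KI against parental difference was -0.17 (SE 0.117), with overlapping groups. The BYL719 difference in KI cells exceeded that in parental cells by 1.71 (SE 0.17), a description because the gene was selected on it. Both the genotype comparison in DMSO and the BYL719 comparison in KI cells use the same 3 KI DMSO libraries.

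FOXO target genes had moved in the same libraries, so the starts of 4 YPEL genes were searched for a FOXO motif. YPEL1 was not searched, because the promoter set used held no sequence for it. In the 300 bases around the RefSeq start (250 before and 50 after it), the FOXO core motif GTAAACA, searched on both strands, was present in YPEL3 and in none of YPEL2, YPEL4 and YPEL5, and it was present in 3.42% of 35116 human promoters and in 2.72% of the 17803 promoters of tested genes. The 4 sequences below run 15 bases to either side of the start in build GRCh38.p14 (RefSeq), 5′ to 3′ on the gene's strand, with the motif in capitals. They are shown to let the 1 match be seen in place and compared with the other starts.
YPEL2, chr17:59331640-59331669, plus strand: cgtccatcacggggtagcccccggcccgga
YPEL3, chr16:30096199-30096228, minus strand: gcagctgggctcggtGTAAACAagtccagg
YPEL4, chr11:57649898-57649927, minus strand: ccacaacacacagccacattcacccacaga
YPEL5, chr2:30146992-30147021, plus strand: tggccgaggggcttcataccagctgaagag
In YPEL3 the match spans 30096207 to 30096213 on chromosome 16, and its first letter is the base that RefSeq gives as the start. It lies 31 bases after the first base of the transcript YPEL3-201, inside its first exon, and 13 bases before that of YPEL3-202 in GENCODE v29. The E-box CACGTG, its own reverse complement and a motif of MYC and related factors, was in none of the 4 windows and in 7.26% of all promoters. A match is a string of letters and does not show that a factor binds.

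YPEL1 (ENSG00000100027.15, chromosome 22, 21697544 to 21735834, minus strand) was low in all groups, and its mouse counterpart is known for changing the shape of cultured fibroblasts. It had 2.08, 2.33 and 1.94 CPM in KI BYL719 libraries, 0.52, 0.42 and 0.39 in KI DMSO, 1.24, 1.43 and 1.33 in parental BYL719 and 0.88, 0.72 and 1.05 in parental DMSO. No 2 groups overlapped, and unlike for YPEL3 the highest level was in KI cells with BYL719. The log2 difference was -0.98 (SE 0.164) for KI against parental cells in DMSO. With BYL719 it was 2.26 (SE 0.16) in KI cells, 4.77-fold, and 0.59 (SE 0.152) in parental cells, 1.5-fold. KI cells under BYL719 were 0.69 (SE 0.146) above parental cells under BYL719.

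YPEL2 (ENSG00000175155.9, chromosome 17, 59331689 to 59401729, plus strand) followed the same order of groups as YPEL1 at a higher level. Its values were 11.5, 12.6 and 13 CPM in KI BYL719, 5.79, 4.15 and 5.36 in KI DMSO, 10.5, 9.85 and 11.0 in parental BYL719 and 7.25, 8.04 and 7.74 in parental DMSO libraries. The 4 groups did not overlap, but the gap between KI and parental cells under BYL719 was narrow. The log2 differences were -0.56 (SE 0.101) for KI against parental cells in DMSO, 1.27 (SE 0.101) for BYL719 in KI cells and 0.44 (SE 0.0992) for BYL719 in parental cells.

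YPEL4 (ENSG00000166793.11, chromosome 11, 57645087 to 57649944, minus strand) was the least abundant member by CPM, with 34 to 138 pairs per library. It had 0.56, 1.01 and 0.97 CPM in KI BYL719, 0.30, 0.26 and 0.27 in KI DMSO, 0.57, 0.56 and 0.42 in parental BYL719 and 0.41, 0.40 and 0.37 in parental DMSO libraries. KI BYL719 replicate 1 fell among the parental BYL719 libraries, while its 2 fellow libraries were far above them, so these neighbours in the order overlapped and the other neighbours did not. The log2 difference for BYL719 in KI cells was 1.61 (SE 0.22), and it was -0.48 (SE 0.229) for KI against parental cells in DMSO. With protein-coding transcripts alone they were 2.12 for BYL719 in KI cells and -0.75 for KI against parental cells in DMSO. Retained-intron transcripts held 7.31% to 49.7% of the YPEL4 reads in KI BYL719, 44.5% to 58.9% in KI DMSO, 3.36% to 39.8% in parental BYL719 and 25.6% to 51.9% in parental DMSO libraries.

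YPEL5 (ENSG00000119801.13, chromosome 2, 30146941 to 30160533, plus strand), the CTLH subunit, had the highest CPM of the family and the smallest differences. It had 53.8, 55.0 and 55.0 CPM in KI BYL719, 33.1, 35.2 and 33.1 in KI DMSO, 49.0, 50.4 and 52.3 in parental BYL719 and 42.1, 43.7 and 41.9 in parental DMSO libraries. The 4 groups were separate and tight, in the order seen for YPEL1 and YPEL2. The log2 differences were -0.30 (SE 0.0474) for KI against parental cells in DMSO, 0.69 (SE 0.0475) for BYL719 in KI cells, 1.61-fold, and 0.24 (SE 0.0472) for BYL719 in parental cells. Its processed pseudogenes had few or no reads: YPEL5P1 and YPEL5P3 had 0 pairs and YPEL5P2 at most 3 in any library.

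**Figure D1:**
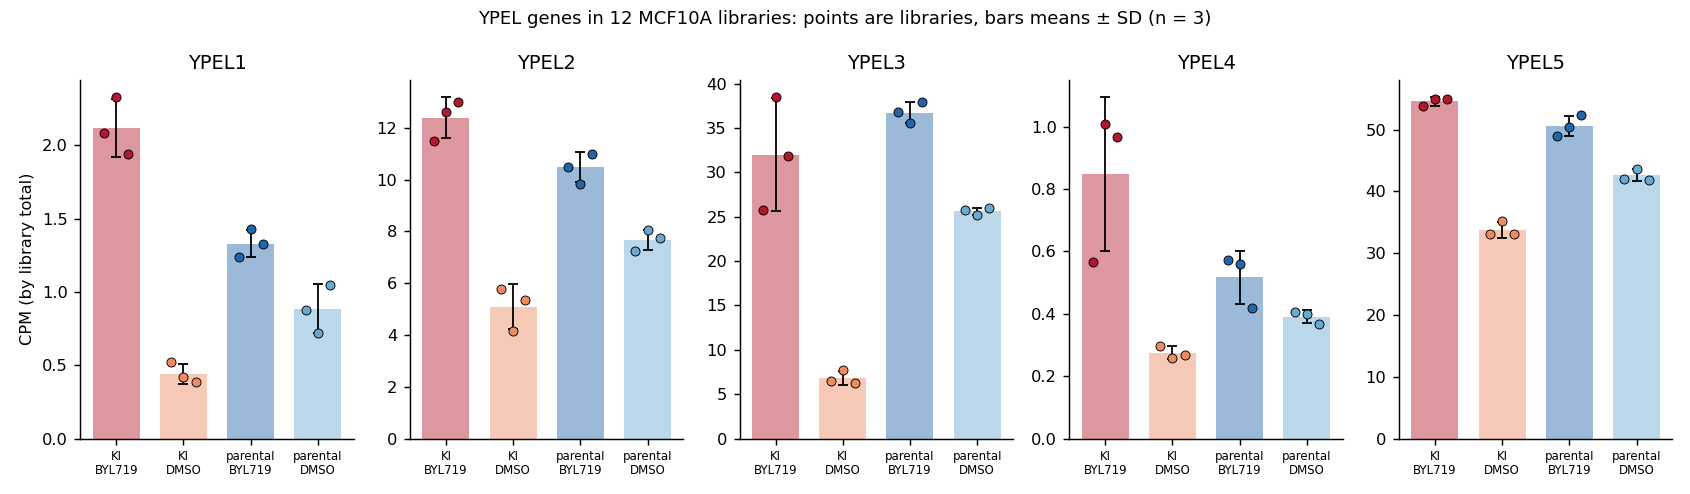
CPM of each YPEL gene (y axes, separate scales from 0) in the 4 MCF10A groups; points are libraries, bars group means and whiskers the SD (n = 3). KI DMSO libraries were the lowest for every member, from 6.27 to 7.69 CPM for YPEL3.

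Set side by side, all 5 genes were lower in KI than in parental cells in DMSO, with no overlap between the groups. Over all genes tested, every KI library lay below every parental library for 25.5%. In KI cells all 5 were higher with BYL719 than with DMSO, again without overlap, against 20.5% of all genes tested. In parental cells all 5 were also higher with BYL719 than with DMSO, by smaller amounts and without overlap, against 16.5%. By edgeR, 4 of the 5 had an adjusted p under 0.05 for KI against parental cells in DMSO, where 34.2% of all genes tested did. The counts were 5 of 5 for BYL719 in KI cells (28.3% of all genes), 1 of 5 for BYL719 in parental cells (1.43%), 2 of 5 for KI against parental cells under BYL719 (22.3%) and 4 of 5 for the interaction of genotype and BYL719 (2.87%). Nothing is read from these counts, since the family was chosen by these comparisons. The background for BYL719 in parental cells, 302 genes, was 73 to 134 without any 1 of the 6 parental libraries and 1973 without KI DMSO replicate 2. The interaction background, 606 genes, was 239 to 346 without any 1 parental library, 301 without KI BYL719 replicate 2, 287 without KI BYL719 replicate 3 and 1874 without KI DMSO replicate 2. That for KI against parental cells under BYL719, 4709 genes, was 7442 without KI DMSO replicate 2.

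**Figure D2:**
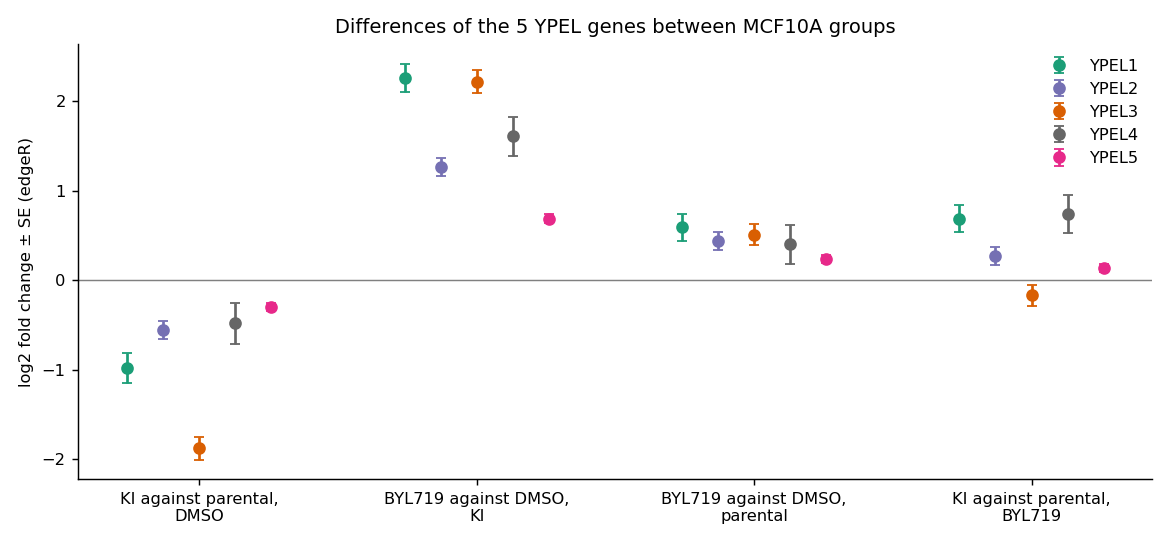
Log2 fold change of each YPEL gene (y axis, with its SE derived from the edgeR F statistic) in 4 comparisons (x axis). All members were below 0 for KI against parental cells in DMSO and above 0 for BYL719 in either line; under BYL719 the KI against parental difference was negative only for YPEL3, at -0.17.

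Levels of different genes were compared in TPM, which takes transcript length into account. YPEL3 averaged 56.6 ± 8.64 TPM in KI BYL719, 12.1 ± 0.975 in KI DMSO, 67.3 ± 2.91 in parental BYL719 and 46.9 ± 0.831 in parental DMSO cells (SD, n = 3 each). YPEL5 averaged 40.9 ± 0.399, 23.8 ± 1.23, 37.1 ± 0.703 and 31.1 ± 0.145 TPM in the same 4 groups, in that order. By TPM summed over all transcripts, YPEL3 was thus above YPEL5 in 3 groups and below it in KI DMSO. The ratio of YPEL3 to YPEL5 was 1.26 to 1.61 in KI BYL719, 0.457 to 0.588 in KI DMSO, 1.74 to 1.93 in parental BYL719 and 1.48 to 1.54 in parental DMSO libraries. The sum includes transcripts that are not protein-coding, such as YPEL3-210 of 371 nt, with 8.48, 10.7 and 5.26 TPM in KI BYL719. The most abundant protein-coding transcripts did not keep this order in every library of KI BYL719 or of parental DMSO. In KI BYL719, YPEL3-201 had 30.5, 34.4 and 24.8 TPM, and YPEL5-201 had 33.7, 32.8 and 32.5. In parental DMSO, YPEL3-201 had 25.3, 23.8 and 27.3 TPM, and YPEL5-201 had 25.4, 26.2 and 24.4. YPEL2 averaged 3.39 ± 0.113 TPM in KI BYL719, 1.33 ± 0.321 in KI DMSO, 2.88 ± 0.279 in parental BYL719 and 2.14 ± 0.263 in parental DMSO cells. YPEL1 reached at most 1.11 TPM and YPEL4 at most 0.666 TPM in any library.

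The level of the family, summed over all transcripts whether protein-coding or not, was 102 ± 9.11 TPM in KI BYL719, 37.6 ± 0.853 in KI DMSO, 108 ± 2.93 in parental BYL719 and 80.8 ± 0.637 in parental DMSO cells. YPEL3 made up 53.1% to 59.0% of that sum in KI BYL719, 29.9% to 35.8% in KI DMSO, 61.4% to 63.7% in parental BYL719 and 57.5% to 58.7% in parental DMSO libraries. The KI DMSO libraries therefore held a family total with YPEL5 as its main part, at 60.8% to 65.5%.

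The transcripts behind these sums were examined next, each with at least 5% of its gene's reads. Salmon divides reads between transcripts by estimate, so the shares carry an assignment error that the SD does not show. YPEL3-201, which is protein-coding, held 53.4% of all YPEL3 reads, the protein-coding YPEL3-202 held 23.1% and YPEL3-211, which keeps an intron, held 9.88%. YPEL3-201 averaged 16.1 ± 2.97 CPM in KI BYL719, 4.2 ± 0.829 in KI DMSO, 19.7 ± 0.447 in parental BYL719 and 14.1 ± 0.949 in parental DMSO cells (SD, n = 3 each). YPEL3-202 averaged 8.15 ± 3.41, 1.19 ± 0.195, 8.35 ± 0.4 and 5.68 ± 0.0996 CPM in the same order of groups. YPEL3-211 averaged 3.74 ± 1.79, 0.601 ± 0.0964, 3.34 ± 0.0953 and 2.31 ± 0.243 CPM. The 3 transcripts shared the low level in KI DMSO. The protein-coding share of YPEL3 reads was 76.8% to 81.5% in KI BYL719, 79.2% to 81.4% in KI DMSO, 79.4% to 81.3% in parental BYL719 and 76.9% to 82.4% in parental DMSO libraries, so the ranges overlapped throughout.

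Within KI BYL719 the YPEL3 transcripts differed between libraries. The share of YPEL3-201 ran from 41.0% to 63.7% and that of YPEL3-202 from 16.4% to 31.4%. The other 3 groups were narrower for YPEL3-202, at 15.0% to 22.4% in KI DMSO, 22.3% to 23.0% in parental BYL719 and 21.6% to 22.5% in parental DMSO.

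Each of YPEL1, YPEL2 and YPEL5 had 1 leading transcript. YPEL1-201 held 95.1% of YPEL1 reads, YPEL2-201 99.7% of YPEL2 reads and YPEL5-201 83.5% of YPEL5 reads, with YPEL5-202 at 10.9%. YPEL5-201 averaged 45.2 ± 0.0704 CPM in KI BYL719, 29.3 ± 2.12 in KI DMSO, 41.8 ± 0.98 in parental BYL719 and 35.3 ± 1.45 in parental DMSO cells. YPEL5-202 averaged 5.78 ± 0.259, 3.26 ± 0.684, 5.73 ± 0.368 and 4.98 ± 0.597 CPM in that order. YPEL4 reads were spread over YPEL4-203 (38.1%), the retained-intron YPEL4-202 (28%) and YPEL4-201 (27.7%). YPEL4-201 had 0.2 to 0.493 CPM in KI BYL719, 0 to 0.0785 in KI DMSO, 0 to 0.341 in parental BYL719 and 0 to 0.156 in parental DMSO libraries, so KI BYL719 lay above both DMSO groups and overlapped parental BYL719.

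**Figure D3:**
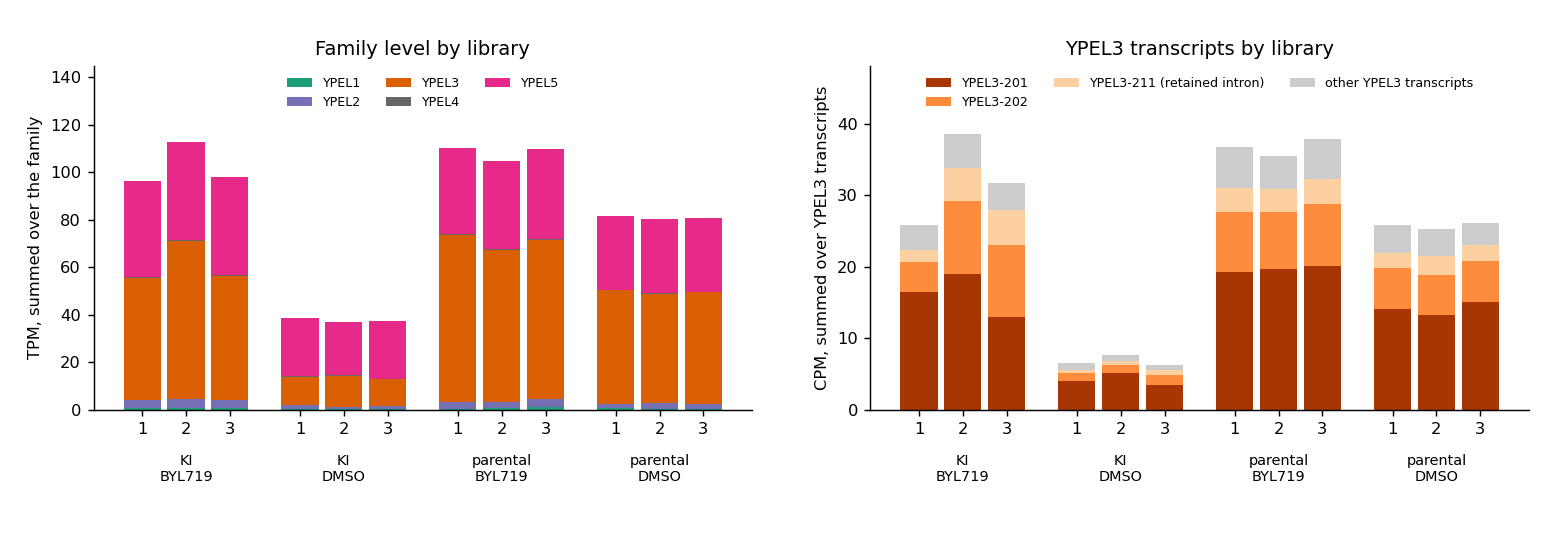
Left, TPM of the 5 YPEL genes stacked for each library (x axis, replicates 1 to 3 by group); right, CPM of the YPEL3 transcripts stacked in the same way. The family sum was 36.8 to 38.5 TPM in KI DMSO and at least 80.1 TPM elsewhere.

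Some YPEL genes overlap others, and the sources do not state whether the libraries kept strand, so reads of overlapping genes could have been exchanged. CLP1, an RNA kinase gene on the strand opposite YPEL4, averaged 15.7 CPM in KI BYL719, 19.2 in KI DMSO, 15.1 in parental BYL719 and 16 in parental DMSO cells. It moved the other way from YPEL4: it rose by 0.29 on the log2 scale in KI against parental cells in DMSO (edgeR, adjusted p = 0.00139) and fell by 0.297 with BYL719 in KI cells (adjusted p = 0.00168). PPIL2, opposite YPEL1, had 47.5 to 50.5 CPM as group means and passed no test by edgeR, its lowest adjusted p being 0.223. AC012645.1, an antisense RNA that overlaps YPEL3, averaged 0.143 CPM in KI BYL719, 0.109 in KI DMSO, 0.207 in parental BYL719 and 0.329 in parental DMSO cells. It fell by 1.54 in KI against parental cells in DMSO (edgeR, adjusted p = 0.000245), and with BYL719 in KI cells its difference was 0.379 (adjusted p = 0.332). AP000662.1, over YPEL4, had 0.0852 to 0.117 CPM and was not called.

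None of the genes described next, which lie beside the members, passed a test with all 12 libraries. TBX6, a transcription factor gene 427 bases from YPEL3, had 0.272 to 0.45 CPM as group means, and its log2 difference for KI against parental cells in DMSO was -0.421 (edgeR, adjusted p = 0.22). GDPD3, 7895 bases away on the other side of YPEL3, had a difference of -0.203 there (adjusted p = 0.231; 0.0311 without KI DMSO replicate 2) and of -0.283 under BYL719 (0.135; 0.0367 without that library). ZDHHC5, a palmitoyltransferase gene beside YPEL4, had 0.0353 in DMSO (0.752; 0.00348 without KI DMSO replicate 2) and -0.00466 for BYL719 in KI cells (0.971; 0.00929 without it). AC016907.2, beside YPEL5, had 0.393 in DMSO (0.145; 0.0448 without KI DMSO replicate 1). AP000553.1, SNRPGP17, LINC01476, MIR130A and SNORA10B, which also lie next to members, had too few reads to be tested.

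Genes of 4 pathways that the family is known for, or that lie between PI3K and transcription, were then described with edgeR tests over all 21079 genes. Of the FOXO targets, 11 of 14 fell in KI against parental cells in DMSO, all 14 rose with BYL719 in KI cells and 10 of 14 rose with BYL719 in parental cells. The share called was thus 78.6%, 100.0% and 71.4% in these comparisons, against 34.2%, 28.3% and 1.43% of all genes tested. Their median log2 difference was -0.52 in the first of these comparisons, 1.43 in the second and 0.45 in the third, against 0.00, 0.02 and 0.01 over all genes tested. The medians of the 5 YPEL genes were -0.56, 1.61 and 0.44. This pattern of the FOXO targets was already known from these libraries and is no independent support. With 1 library left out, 7 to 14 of them were called for BYL719 in parental cells and 10 to 14 for the interaction. The 14 in parental cells came without KI DMSO replicate 2. Under BYL719, 7 FOXO targets were higher and 2 lower in KI than in parental cells (64.3% called, against 22.3% of all genes; median 0.29, all genes 0.01). For 12 of 14 the BYL719 response was larger in KI than in parental cells by the interaction test (85.7%, against 2.87% of all genes; median of the difference 0.87, all genes 0.01).

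Among the FOXO targets, ERBB3, a receptor of the EGFR family, had 21.6 ± 2.81 CPM in KI and 85.7 ± 3.17 in parental cells when both had DMSO (log2 -1.97, adjusted p = 3.97e-09). SESN3, a sestrin that restrains mTORC1, had 3.66 ± 0.867 and 13.8 ± 0.578 CPM in these groups (-1.89, adjusted p = 4.07e-07), and INSR, the insulin receptor, 19.0 ± 3.81 and 43.9 ± 1.92 (-1.19, adjusted p = 2.8e-06). With BYL719 in KI cells, PDK4, which switches off pyruvate dehydrogenase, reached 183 ± 26.3 CPM against 16.3 ± 1.92 in DMSO (3.48, adjusted p = 7.2e-09). PIK3IP1, a PI3K inhibitor protein, reached 8.91 ± 0.619 against 1.04 ± 0.26 (3.09, adjusted p = 5.62e-08) and KLHL24, a ubiquitin ligase adaptor, 67.5 ± 4.39 against 16 ± 3.14 (2.07, adjusted p = 1.43e-07). In parental cells PDK4 rose by 1.59 (adjusted p = 4.75e-05), the repressor BCL6 by 0.84 (0.00337) and PIK3IP1 by 0.81 (0.0125; 0.0533 to 0.0892 when 1 of 4 parental libraries was left out, DMSO replicates 1 and 2 and BYL719 replicates 1 and 3). Under BYL719, PDK4 and PIK3IP1 were 1.69 and 1.2 higher in KI than in parental cells (adjusted p = 2.98e-07 and 2.78e-05) and SESN3 was lower, at -1.28 (1.04e-05). In this comparison 9 of the 14 FOXO targets were above 0 and 5 below, called or not. Of the YPEL genes 4 were above 0 and 1 below. The 1 below was YPEL3, at -0.17 (SE 0.117) with overlapping groups.

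Genes of the CTLH complex, in which YPEL5 sits, were called in DMSO about as often as all genes: 1 of 10 rose and 3 fell in KI against parental cells (40.0% called, against 34.2% of all genes; median -0.10), and 2 were called in a fit of these groups alone. GID4, a substrate receptor, had 12.2 ± 1.14 CPM in KI and 19.6 ± 0.0355 in parental cells (log2 -0.66, adjusted p = 7.26e-06). RMND5A, a RING subunit, had 48.3 ± 8.56 and 73.6 ± 1.74 CPM (-0.58, adjusted p = 0.000528). The scaffold ARMC8 was higher by 0.16 (adjusted p = 0.0164; 0.0552 without parental DMSO replicate 1, which left 2 calls). With BYL719 in KI cells 4 rose and 1 fell (50%, against 28.3%; median 0.22), and the number called was 3 without KI BYL719 replicate 1, 2 without KI BYL719 replicate 2 and 1 in a fit of the KI groups alone. GID4 rose by 0.68 (adjusted p = 1.23e-05), WDR26, a scaffold subunit, by 0.29 (0.0123; 0.0971 in the fit of the KI groups alone), and RMND5A by 0.32 (0.0253; 0.128 in that fit, 0.0686 and 0.0978 without KI BYL719 replicates 1 and 2). With BYL719 in parental cells 0 of 10 were called by edgeR (all genes 1.43%), 1 had an unadjusted p under 0.05, DESeq2 called 0, 2 were called without KI DMSO replicate 2, and 4 were called in a fit of the parental groups alone (3 rose and 1 fell). Under BYL719, RMND5A was lower in KI than in parental cells by -0.41 (0.00776) and the core subunit GID8 by -0.15 (0.0333; 0.0501 to 0.112 when 1 of 7 libraries was left out, parental DMSO replicate 3 or any library with BYL719). These 2 calls (20%, against 22.3% of all genes) became 1 without parental DMSO replicate 3, any 1 parental BYL719 library or KI BYL719 replicate 2 or 3, and 4 without KI DMSO replicate 2 or in a fit of the BYL719 groups alone.

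The p53 targets, a group to which YPEL3 itself is said to belong, were called more often upward than downward between the lines. In KI against parental cells in DMSO 8 of 14 rose and 1 fell (64.3% called, against 34.2% of all genes; median 0.31). CDKN1A, the CDK inhibitor p21, had 401 ± 15.6 CPM in KI and 218 ± 4.54 in parental cells (log2 0.90, adjusted p = 3.87e-08). The stress cytokine GDF15 had 17.2 ± 2.1 and 9.25 ± 0.306 CPM (0.93, adjusted p = 6.29e-06) and the pro-apoptotic BAX 62.9 ± 9.83 and 40.6 ± 0.254 (0.66, adjusted p = 0.00016). With BYL719 in KI cells 6 rose and 2 fell (57.1%, against 28.3%; median 0.13); 4 in all were called without KI BYL719 replicate 2, 5 without replicate 3 and 4 in a fit of the KI groups alone. CDKN1A fell by 0.50 (adjusted p = 1.47e-05), while TP53INP1, an autophagy gene, rose by 0.79 (0.000113) and SESN1, a sestrin, by 0.58 (0.000131). With BYL719 in parental cells 0 of 14 were called by edgeR (all genes 1.43%), 2 had an unadjusted p under 0.05, DESeq2 called 2, 2 were called without KI DMSO replicate 2, and 6 were called in a fit of the parental groups alone (3 rose and 3 fell). Under BYL719, 10 were higher and 1 lower in KI cells (78.6%, against 22.3%; median 0.42), among them GDF15 by 0.69 (9.71e-05), the ribonucleotide reductase subunit RRM2B by 0.59 (9.01e-05) and the p53 ligase MDM2 by 0.57 (1.04e-05).

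Of the proliferation genes, 2 of 12 rose and 1 fell in KI against parental cells in DMSO (25% called, against 34.2% of all genes; median 0.02), and 5 were called without KI DMSO replicate 1 or without replicate 3. CCND1, cyclin D1, had 183 ± 17.2 CPM in KI and 100 ± 8.17 in parental cells (log2 0.90, adjusted p = 1.26e-05), the mitotic kinase AURKA 199 ± 1.52 and 163 ± 2.51 (0.32, adjusted p = 2.91e-05) and the helicase subunit MCM2 164 ± 2.84 and 191 ± 3.51 (-0.19, adjusted p = 0.00346). With BYL719 in KI cells 1 rose and 5 fell (50%, against 28.3%; median -0.10). CCND1 fell by 0.93 (adjusted p = 2.1e-05), AURKA by 0.35 (2.71e-05) and CCNE1, cyclin E1, by 0.40 (0.000149). In parental cells 1 rose and 1 fell (16.7%, against 1.43%; median -0.05), and 4 were called in a fit of the parental groups alone. CCND1 fell by 0.63 (0.00634; 0.0528 and 0.0547 without parental DMSO replicate 1 and parental BYL719 replicate 3). The topoisomerase gene TOP2A rose by 0.21 (0.0363), a call lost when any 1 of 9 libraries was left out (0.0558 to 0.216): the 6 parental libraries, KI DMSO replicate 3 and KI BYL719 replicates 2 and 3. Under BYL719, 2 were higher and 2 lower in KI cells (33.3%, against 22.3%; median 0.01): CCND1 was higher by 0.60 (0.000463), CCNE1 lower at -0.33 (0.000548) and MCM2 lower at -0.20 (0.00426).

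**Figure D4:**
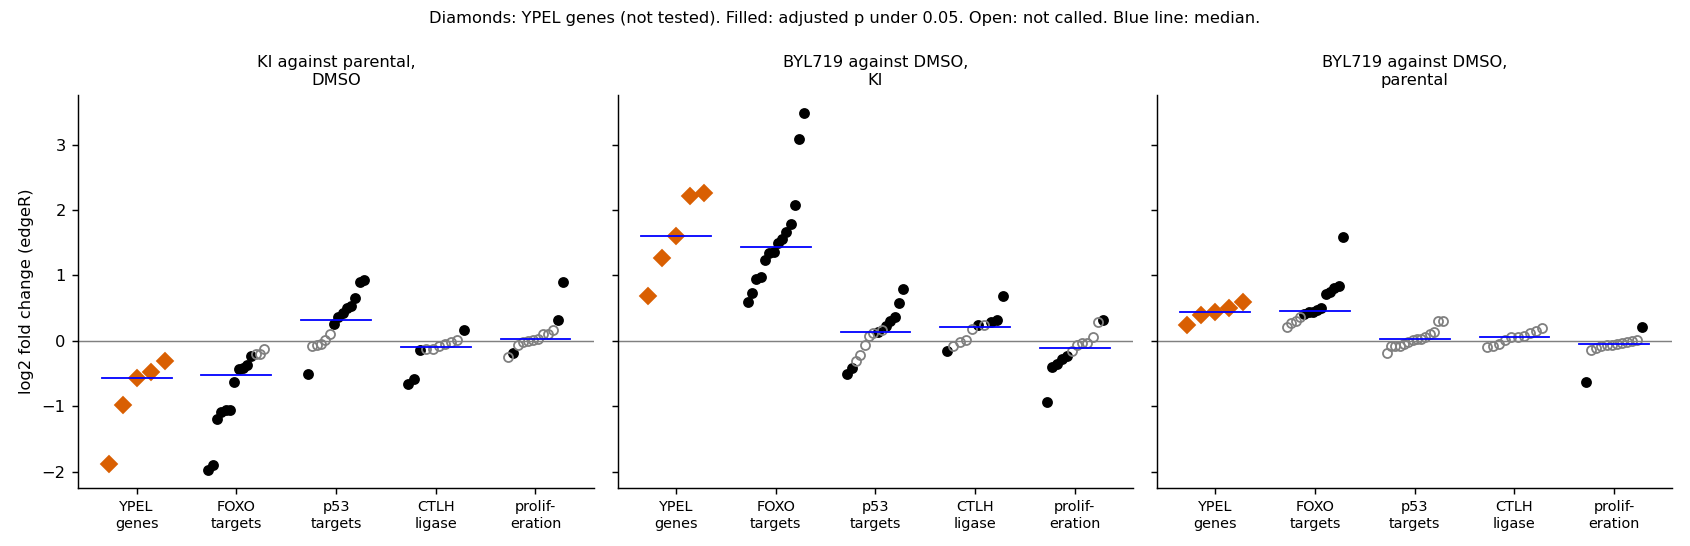
Log2 fold change (y axis, edgeR) of the YPEL genes (diamonds, not tested) and of the genes of 4 lists (circles, filled where the adjusted p was under 0.05) in 3 comparisons; blue lines are medians. FOXO targets, with medians of -0.52, 1.43 and 0.45, lay on the same side of 0 as the YPEL genes. The CTLH medians, -0.10, 0.22 and 0.06, were on that side too, with single genes on either side of 0.

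To see which genes ran most closely with YPEL3, log2 (CPM + 0.5) was centred for each gene over the 12 libraries and the root mean square difference from YPEL3 was taken for 13774 genes with a mean of at least 1 CPM. The 6 nearest were GRB7 (0.149), GLUL (0.179), BMF (0.213), ERBB3 (0.255), IKZF2 (0.271) and HDAC5 (0.271). They were picked for their likeness in these same libraries, so a group order shared with YPEL3 follows from that choice. ERBB3 did not share the full order, with means of 74.1 CPM in KI BYL719 and 85.7 in parental DMSO cells. GRB7 encodes an adaptor of receptor kinases, GLUL glutamine synthetase, BMF a pro-apoptotic BH3-only protein, IKZF2 the transcription factor Helios and HDAC5 a histone deacetylase. GRB7 averaged 26.1 ± 2.29 CPM in KI BYL719, 6.90 ± 0.846 in KI DMSO, 33.6 ± 0.57 in parental BYL719 and 20.8 ± 0.14 in parental DMSO cells (SD, n = 3 each), an order of groups that it shared with YPEL3. GLUL was far more abundant, at 913 ± 89.3, 186 ± 14.2, 1083 ± 13.3 and 608 ± 15.8 CPM in that order, and BMF had 17.1 ± 3.3, 3.48 ± 0.541, 24.2 ± 1.51 and 13.4 ± 1.47 CPM. By this measure YPEL2 ranked 122, YPEL1 126 and YPEL5 508 of the 13774 genes, and YPEL4 was under the minimum level. The added 0.5 shrinks differences of low genes such as YPEL1, which averaged 0.442 CPM in KI DMSO. By edgeR, YPEL1 differed by 2.26 for BYL719 in KI cells, against 2.22 for YPEL3. For KI against parental cells in DMSO they differed by -0.98 and -1.88. Without KI DMSO replicate 2, 5 of the 6 nearest genes were the same, with ABTB1 in place of HDAC5.

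**Figure D5:**
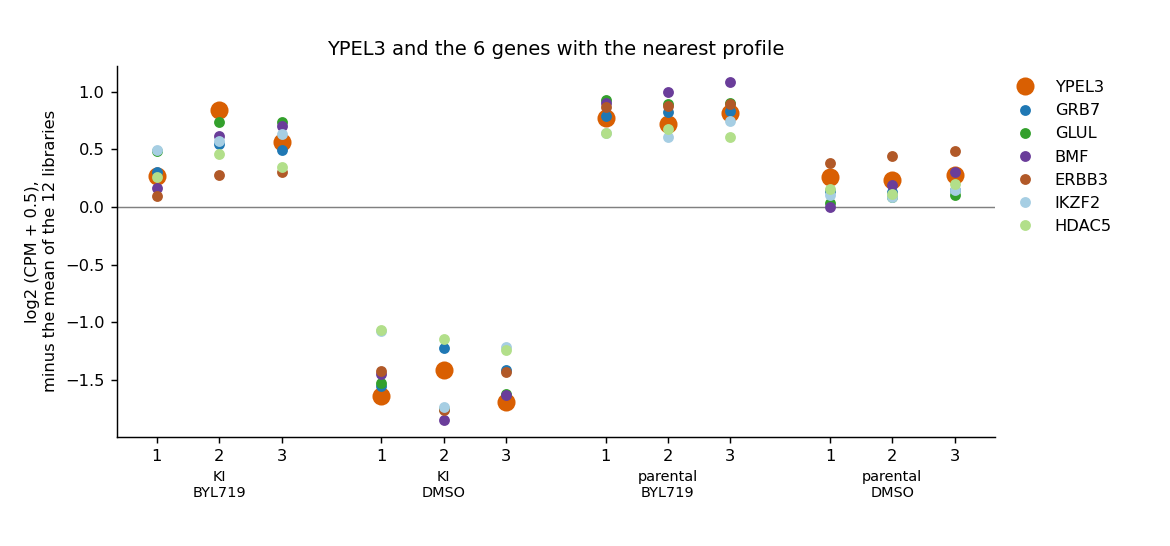
Log2 (CPM + 0.5) of YPEL3 and of the 6 genes nearest to it (y axis, minus each gene's mean over the 12 libraries) by library (x axis, replicates 1 to 3 by group). All 7 genes were lowest in the 3 KI DMSO libraries, and the 6 were chosen for their likeness to YPEL3 over these libraries.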

How the data were processed

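RNA of MCF10A cells was sequenced as read pairs of 150 nt. Per the submitters' processing notes, the tools named were Trim Galore 0.6.1, cutadapt, Salmon 1.2.1 and DESeq2 1.28.1, and the builds included GRCh38. The deposited tables give the authors' estimated counts and TPM for each transcript. The sources do not state strandedness or the annotation release. Estimated counts were summed by gene identifier and rounded. TPM was summed without change. CPM is the count scaled to a fixed library total.

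The 12 libraries were fitted by group with edgeR 4.0.16 in R 4.3.3 (quasi-likelihood, robust, TMM, filterByExpr), two-sided, with Benjamini-Hochberg adjustment over 21079 genes and a threshold of 0.05; the step was tested on simulated data. The simulation gave all groups the same spread and held no outlying library, so it did not check the fit under such differences. Adjusted p-values are from the fit of the 12 libraries. The SE of a log2 difference is its absolute value divided by the square root of the F statistic. It rests on a spread shared by the 4 groups, so it does not show where 1 group varied more. Replicates may be technical, and p-values measure only the spread between libraries. The alternatives were no filter, DESeq2 1.42.0, library totals, protein-coding transcripts, a replicate block, separate fits and each library left out. The members and lists were chosen with earlier results of these data known. Named genes were the 5 members with transcripts of at least 5% of reads, up to 3 called genes per list and comparison with the largest change, the nearest annotated genes on each side (GENCODE v29; the overlapping genes were added after their values were seen), and the 6 genes nearest to YPEL3. One neighbouring gene is not reported here. RefSeq promoters matched 4 members, YPEL2 to YPEL5. Fibroblast tables list transcripts without gene names, and the planned test of Ypel transcripts there was not run.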

Additional observations from a re-analysis of the deposited data

Results flagged for a closer look

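The BYL719 response of 16 of the 50 listed genes differed between the lines by the edgeR interaction test, 14 upward and 2 downward. The 7 with the largest difference, up to 3 from each list, are given as the log2 difference in KI cells minus that in parental cells. It was larger in KI cells for the FOXO targets PIK3IP1 by 2.28 (adjusted p = 0.000104), PDK4 by 1.89 (9e-05) and KLHL24 by 1.35 (0.00055). GID4 of the CTLH complex differed by 0.48 (0.0145; 0.0511 to 0.0572 when DMSO replicate 3 or BYL719 replicate 2 or 3 of the parental line was left out). The p53 target SESN1 differed by 0.47 (0.0345; 0.0748 to 0.111 when 1 of 8 libraries was left out: parental DMSO replicates 2 and 3, all parental BYL719 libraries, KI DMSO replicate 3 and KI BYL719 replicates 2 and 3). CDKN1A differed by -0.42 (0.00683) and the mitotic kinase AURKA by -0.29 (0.0106), both lower with BYL719 in KI cells, by -0.50 and -0.35. Groups of 3 libraries were not searched for outliers.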

How the results depend on the processing

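YPEL3 kept its direction under all alternatives, and its value moved by less than the spread between replicates. With 1 library left out its log2 difference was -1.99 to -1.80 for KI against parental cells in DMSO, 2.07 to 2.32 for BYL719 in KI cells, 0.49 to 0.539 in parental cells, -0.322 to -0.0555 for KI against parental cells under BYL719 and 1.56 to 1.81 for the interaction. Of 445 values of the 5 members under alternatives, 435 moved by less than that spread and 10 by more, 3 of YPEL4 with protein-coding transcripts and 7 of YPEL5 with 1 library left out. No sign changed.

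Counts depended on the setting, and the cause was not tested. With separate fits, 2610 genes were called for BYL719 in KI cells and 3484 in parental cells, with 28 list genes in parental cells. DESeq2 called 891 genes for BYL719 in parental cells and 1429 for the interaction. With 1 library left out the genes called were 5759 to 8382 for KI against parental cells in DMSO, 4237 to 6977 for BYL719 in KI cells, 73 to 1973 in parental cells, 3562 to 7442 for KI against parental cells under BYL719 and 239 to 1874 for the interaction. List genes called were 24 to 29, 25 to 38, 7 to 21, 23 to 32 and 12 to 19 of 50 in these comparisons, in that order. With 1 library left out, the largest of these counts for BYL719 in parental cells came without KI DMSO replicate 2.

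Same-numbered libraries were not treated as paired in the main fit. Their deviations from group means correlated at -0.146 to 0.381 (median 0.0652), over 0.1 in 7 of 18 pairs, against a median of -0.0492 and 4 of 36 pairs for different numbers. Between parental DMSO and parental BYL719 libraries the correlation was 0.0166, 0.381 and 0.309 for replicates 1, 2 and 3. These values do not settle whether equal numbers mark pairs. With the replicate block, 7104 genes were called for KI against parental cells in DMSO, 5818 for BYL719 in KI cells, 213 in parental cells, 4510 under BYL719 and 443 for the interaction. The block also lost the calls of TOP2A in parental cells (adjusted p = 0.0712) and of SESN1 in the interaction (0.0627).

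Of the values of named list genes and neighbouring genes under alternatives, 1564 stayed on their side of the threshold, 46 lost it, 8 passed it, and no called difference changed sign. Without the low-count filter ARMC8, GID8 and TOP2A were no longer called. YPEL4, at 34 to 138 pairs per library, is limited by depth, and its transcript estimates more so.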
